A study of Homo sapiens with 6 samples.

Results

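Chromatin accessibility was described at 10 genes that set whether a B cell survives or dies, in bulk ATAC-seq peak lists of fixed GM12878 cells. GM12878 is a human lymphoblastoid cell line, that is, B cells immortalised with Epstein-Barr virus. ATAC-seq uses the transposase Tn5 to cut and tag open DNA, so that reads pile up at accessible elements. The members were 5 survival genes (BCL2, BCL2L1, MCL1, BCL2A1 and CFLAR) and 5 death genes (BCL2L11, BAX, BAK1, BBC3 and FAS). Peaks counted for a gene when they overlapped its GENCODE body (hg19) or the 10 kb on either side. Peaks of all 6 libraries were merged into 56447 regions, and 52 of these lay in the windows of the 10 genes, 38 at survival genes and 14 at death genes.

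All 6 libraries came from the same line, fixed with 1% PFA, transposed at 37 °C for 30 min, quenched with 40 mM EDTA and reverse crosslinked at 65 °C overnight with proteinase K. By their labels they differed in how the crosslinks were reversed. The old buffer held SDS and, per the methods of the study, the DNA was purified before PCR. In the new buffer, which is free of SDS, samples were purified before PCR (new buffer purified) or amplified in the same mixture (new buffer unpurified). For the unpurified protocol, the methods also describe another detergent level in the lysis buffer and a spin before the new buffer was added. Any effect of these steps cannot be told apart from that of the buffer or the purification. Each protocol had 2 replicates. Nothing in the sources used here says that these came from separate cultures, so the spread between them may be technical. There was no unfixed or untreated control among these libraries, and the comparison asked whether the protocols gave the same accessible sites.

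Apoptosis in B cells is decided largely at the mitochondrion. BAX and BAK1 form pores in its outer membrane, which releases cytochrome c and starts the caspase cascade. BCL2, BCL2L1 (BCL-XL), MCL1 and BCL2A1 (BFL-1) hold these pore formers in check, and the BH3-only proteins BCL2L11 (BIM) and BBC3 (PUMA) bind and neutralise the inhibitors. FAS is the death receptor that germinal centre B cells carry on their surface, and CFLAR (c-FLIP) blocks caspase activation below it. BCL2A1, CFLAR and BCL2L1 are known targets of NF-kB, the factor that the viral protein LMP1 keeps active in lymphoblastoid cells, and BBC3, BAX and FAS are known targets of p53.

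The sequences of 6 accessible windows are shown as examples. They are the 2 strongest distal elements inside BCL2, its canonical promoter, an intronic element of BCL2L1, the element upstream of BCL2L11 and the intronic element of BBC3. Each is 300 bp of the GRCh37 reference (the same build as hg19), plus strand, centred on the summit of the strongest peak. Capitals mark matches, on either strand, to the NF-kB, AP-1 (TGANTCA), RUNX (TGTGGTT) and IRF (GAAANNGAA) patterns.
BCL2 intronic element, chr18:60848271-60848570: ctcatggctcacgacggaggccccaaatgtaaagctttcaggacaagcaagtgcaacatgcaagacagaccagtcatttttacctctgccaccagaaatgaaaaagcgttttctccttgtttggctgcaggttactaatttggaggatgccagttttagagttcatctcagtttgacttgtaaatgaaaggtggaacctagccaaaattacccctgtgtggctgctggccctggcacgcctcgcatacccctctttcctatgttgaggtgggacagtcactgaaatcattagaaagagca
BCL2 intronic element near the promoter, chr18:60978816-60979115: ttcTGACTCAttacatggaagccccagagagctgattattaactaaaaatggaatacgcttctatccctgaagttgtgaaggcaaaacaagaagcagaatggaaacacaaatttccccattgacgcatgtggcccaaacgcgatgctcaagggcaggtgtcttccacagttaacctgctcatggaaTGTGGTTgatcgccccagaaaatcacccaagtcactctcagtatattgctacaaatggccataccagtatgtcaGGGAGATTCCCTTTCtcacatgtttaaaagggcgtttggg
BCL2 canonical promoter, chr18:60987366-60987665: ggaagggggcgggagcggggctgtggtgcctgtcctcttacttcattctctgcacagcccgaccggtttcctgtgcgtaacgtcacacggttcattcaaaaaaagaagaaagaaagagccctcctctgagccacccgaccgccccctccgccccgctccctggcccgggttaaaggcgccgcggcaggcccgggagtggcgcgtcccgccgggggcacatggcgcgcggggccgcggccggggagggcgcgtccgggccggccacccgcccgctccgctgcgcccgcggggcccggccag
BCL2L1 intronic element, chr20:30305345-30305644: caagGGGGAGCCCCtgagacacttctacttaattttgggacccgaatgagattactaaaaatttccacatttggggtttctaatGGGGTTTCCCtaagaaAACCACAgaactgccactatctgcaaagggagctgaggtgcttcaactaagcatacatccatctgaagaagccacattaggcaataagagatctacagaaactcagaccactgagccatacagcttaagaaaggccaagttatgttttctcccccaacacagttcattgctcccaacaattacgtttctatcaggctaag
BCL2L11 upstream element, chr2:111873576-111873875: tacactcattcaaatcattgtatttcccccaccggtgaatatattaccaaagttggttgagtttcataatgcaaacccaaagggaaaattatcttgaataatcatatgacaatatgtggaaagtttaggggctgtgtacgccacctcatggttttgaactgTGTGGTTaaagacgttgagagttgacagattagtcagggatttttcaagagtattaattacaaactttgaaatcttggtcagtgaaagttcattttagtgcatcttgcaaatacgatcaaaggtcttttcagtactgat
BBC3 intronic element, chr19:47729439-47729738: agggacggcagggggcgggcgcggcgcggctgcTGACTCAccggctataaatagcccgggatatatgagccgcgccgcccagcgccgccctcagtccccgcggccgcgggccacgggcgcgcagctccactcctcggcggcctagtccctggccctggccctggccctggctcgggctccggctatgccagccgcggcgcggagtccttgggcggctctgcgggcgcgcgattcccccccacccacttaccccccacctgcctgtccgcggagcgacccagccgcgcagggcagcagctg
The BCL2 element near the promoter held all 4 patterns, and its NF-kB and IRF matches overlapped. The BCL2L1 element held 2 NF-kB matches and 1 RUNX match. The BCL2L11 element held 1 RUNX match and the BBC3 element 1 AP-1 match. The other BCL2 windows held none of these patterns. The BCL2 promoter and the BBC3 element were rich in CpG, with 37 and 38 CpG dinucleotides, and the 4 others had 2 to 6.

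The libraries held 30136 to 38023 peaks. The lists carry no read totals, but the reads at each summit and the local background, the number of reads expected there by chance, could be solved from the fold enrichment and p value of every peak. The median peak had 20 to 22 reads at its summit, and the lowest background of a library, which scales with its depth, was 1.51 to 1.86 reads. Among the B cell markers, a promoter was called in all 6 libraries at MS4A1 and EBF1 and in 1 to 4 libraries at CD79A, CD79B and PAX5. Of the 11 T cell, erythroid and epithelial markers, a promoter was called in all libraries at CD8A only and in none at the other 10.

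The member windows held 35 and 33 peaks in the old buffer libraries, 40 and 38 in the new buffer purified libraries, and 35 and 32 in the new buffer unpurified libraries (replicates 1 and 2). The new buffer purified libraries thus held the most. Of all libraries, replicate 1 of that protocol had the most peaks in all (38023) and replicate 2 the fewest (30136). As a share of all peaks of a library this was 0.0930% and 0.0948%, 0.105% and 0.126%, and 0.0965% and 0.0929%. With 2 libraries against 2, an exact two-sided permutation test cannot go below p = 0.33, so no p was computed for these totals.

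Of the 52 regions, 19 (36.5%) were called in all 6 libraries, where 35.5% of all regions were. The other 33 were called in some of the libraries, 10 of them in 1 library, which was the case for 27.4% of all regions. At survival genes 12 of 38 regions (31.6%) were called in all libraries and at death genes 7 of 14 (50%). The survival share thus lay below the background and the death share above it, and the members as a whole lay close to it.

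**Figure D1:**
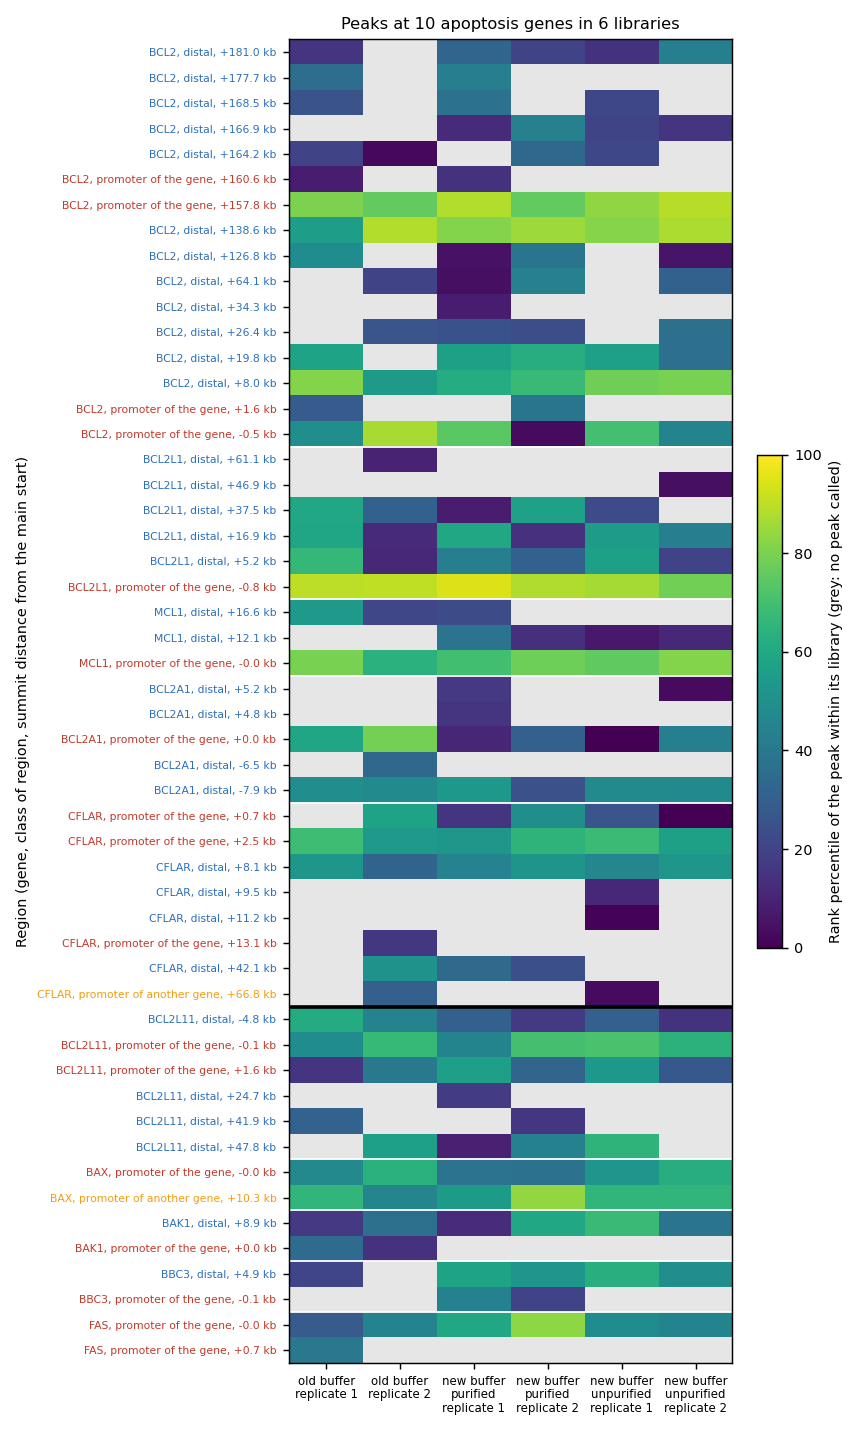
Rank percentile of the strongest peak in each of the 52 regions (rows, with gene, class of region and distance of the summit from the main start in kb) in the 6 libraries (columns), grey where no peak was called. Rows above the black line belong to survival genes and rows below it to death genes, and 19 rows are filled in all 6 libraries.

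Regions were split into promoters, within 1 kb of a start of a protein-coding transcript of the member, and distal regions, which touched no protein-coding promoter. Survival genes had 10 promoter and 27 distal regions, and death genes had 7 promoter and 6 distal regions. The remaining regions were promoters of neighbours, CASP10 in the CFLAR window and FTL in the BAX window. Of the promoter regions 6 of 10 at survival genes and 4 of 7 at death genes were called in all 6 libraries (60% and 57.1%), against 64.2% of all promoter regions. Of the distal regions 6 of 27 and 2 of 6 were (22.2% and 33.3%), against 26.7% of all distal regions. Neither class thus stood far from the background in how reproducibly its regions were called.

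The classes differed in the number of distal regions, most of which were called in some of the libraries only. Survival windows held 6.05 distal regions per 100 kb and death windows 2.99, where the windows of all 19821 protein-coding genes held 1.54 per 100 kb. Counting only distal regions called in all 6 libraries, the densities were closer, 1.35 and 0.996 per 100 kb. This density was not computed over all genes. BCL2 alone, with its long body, gave 12 distal regions. Without it, survival windows held 6.54 distal regions per 100 kb called in any library and 1.745 called in all 6. All 5 survival genes had at least 1 distal region and 3 of 5 death genes did, against 45.6% of all genes. In distal regions per 100 kb, BCL2, BCL2L1, MCL1, BCL2A1, CFLAR and BCL2L11 lay at percentiles 93.8 to 99.9 of all genes, BAK1 at 86.3 and BBC3 at 82.7. BAX and FAS had no distal region, like 54.4% of all genes. Counting regions called in any library, BCL2L11 was thus the only death gene with a distal density in the range of the survival genes. Distal regions called in all 6 libraries numbered 2 each at BCL2 and BCL2L1 and 1 each at BCL2A1, CFLAR, BCL2L11 and BAK1. MCL1 and BBC3 had 0, and the BAK1 window spanned only 27.75 kb, so the order of the genes did not hold for these regions.

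**Figure D2:**
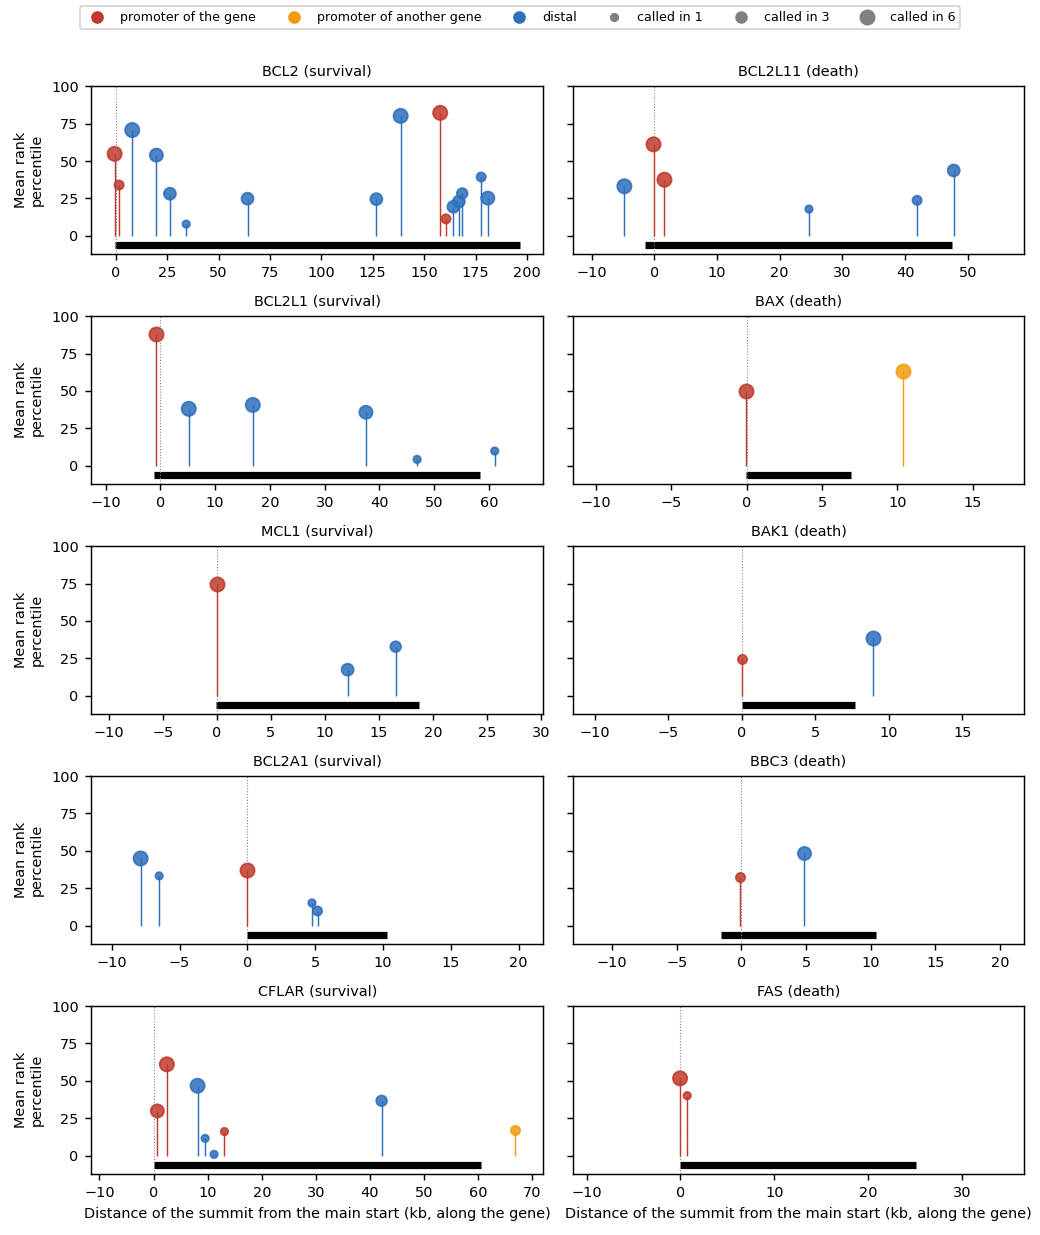
Each region at its distance from the main start of the gene (x axis, kb, downstream to the right), with its mean rank percentile over the libraries that called it (y axis, 0 to 100), coloured by class and sized by the number of libraries. The black bar is the gene body, and the left column holds survival genes and the right column death genes. BCL2 carries 16 regions, among them intronic ones at percentiles 80.1 and 70.7, whereas BAX and FAS carry no distal region.

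Peaks were ranked within each library by −log10 q, and the rank percentile is the percent of peaks of that library at or below a peak. The median percentile of the promoter regions of survival genes was 64.0 and 69.8 in the old buffer libraries, 61.3 and 57.4 in the new buffer purified libraries, and 70.0 and 56.9 in the new buffer unpurified libraries. For death genes it was 37.6 and 44.6, 45.1 and 37.4, and 52.8 and 53.7. Survival promoters thus ranked higher in 6 of 6 libraries, by 18.0 ± 8.34 points (SD, n = 6 libraries), from 3.24 in new buffer unpurified replicate 2 to 26.4 in old buffer replicate 1. The libraries share 1 cell line and the same promoters, so this SD is a spread between libraries and not between genes. Of the 10 survival promoter regions BCL2 gave 4 and CFLAR 3. These medians rest on the promoter regions that each library called. Over all promoter regions, each at its mean over the libraries that called it, the medians were 46.0 at survival genes and 40.1 at death genes, a smaller gap. The order also depended on the measure, since ranking by fold enrichment over background gave a difference of −1.11. Both classes lay below the promoters of all genes, whose median percentile was 69.5 to 72.5, except survival promoters in old buffer replicate 2.

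The distal regions gave no such order. Their median percentile was 53.6 and 28.6, 34.7 and 36.0, and 23.0 and 36.4 at survival genes, and 26.2 and 44.6, 17.9 and 44.0, and 63.9 and 38.6 at death genes, in the same order of libraries. Survival genes were higher in 2 libraries and lower in 4, with a mean difference of −3.83 ± 24.3 points (SD, n = 6), well within its spread. The mean turned positive, 3.59, without new buffer unpurified replicate 1. Death medians rested on 3 to 5 regions in a library.

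A promoter was called in all 6 libraries at 8 of the 10 members, all but BAK1 and BBC3, where 45.5% of all genes had such a promoter. For each gene the strongest such promoter by −log10 q was compared with those of other genes, whose median was a mean percentile of 78.6. BCL2L1 (88.1) and BCL2 (82.2) lay above it. MCL1 lay slightly below (74.7), then BCL2L11 (61.1), CFLAR (61.0), FAS (51.7) and BAX (50.2), and BCL2A1 was lowest (37.2). The ranges over the 6 libraries overlapped between every pair of neighbours in this order, so that no neighbours differed beyond their spread.

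Of the survival genes, BCL2, the founding inhibitor of apoptosis, had the most regions, 16 in a window of 217 kb on chromosome 18, 4 of them called in all libraries. Its strongest promoter was not the canonical one but lay at an internal start near the 3′ end of the gene, within an intron, at chr18:60828352-60829456. The reads at its summit were 59 and 51 in the old buffer libraries, 69 and 48 in the new buffer purified libraries, and 66 and 66 in the new buffer unpurified libraries. The canonical promoter, chr18:60987131-60988093, had its summit 514 bp upstream of the canonical start and gave 30 and 48, 43 and 20, and 41 and 30 reads. This promoter was called everywhere but varied more than any other BCL2 region in rank, from percentile 2.87 in new buffer purified replicate 2 to 87.0 in old buffer replicate 2 (54.8 ± 29.9, SD, n = 6). The internal one stayed between 75.8 and 89.3.

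The BCL2 introns held 12 distal regions. The strongest by −log10 q, chr18:60848006-60848750, had 26 and 39, 36 and 37, and 38 and 45 reads, and ranked at 80.1 ± 12.3 (SD, n = 6), as high as the internal promoter. Another lay 8036 bp into the gene from the canonical start, at chr18:60978637-60979456, with 47 and 30, 37 and 34, and 46 and 46 reads (70.7 ± 10.9). This is the window printed above with 4 motif patterns. No other distal region of BCL2 was called in all libraries. The remaining 10 were called in 1 to 5 libraries and ranked between 7.78 and 53.9 in the mean.

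The 3′ part of BCL2 had a high local background, and there calls and reads came apart. The promoter region at chr18:60826207-60826442 had 37 and 38 reads in old buffer replicate 1 and new buffer purified replicate 1 and no call in the other 4 libraries. Its background was 13.9 reads, so it ranked at percentile 11.3 by −log10 q but at 81.5 by summit reads. A further promoter region lay at the other end of the gene, in a coding exon 1646 bp from the canonical start (chr18:60985285-60985634). Its mean background was 6.47 reads, and it was called in 2 libraries with 27 and 28 reads. The distal region at chr18:60820031-60820361 was called in all 4 libraries of the new buffer (percentile 12.2 to 43.6) and in neither of the old.

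**Figure D3:**
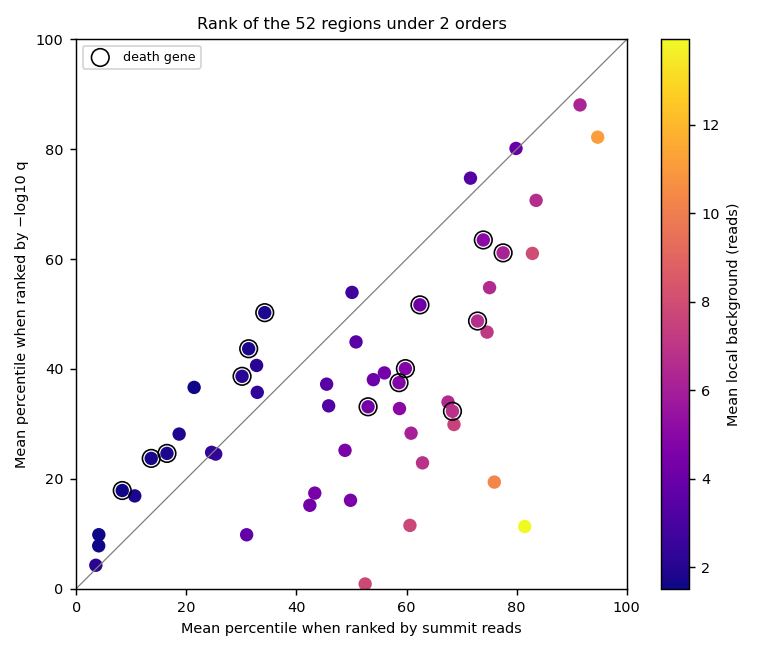
Mean percentile of the 52 regions ranked by summit reads (x axis) and by −log10 q (y axis), coloured by the mean local background in reads, with death genes circled and equal ranks on the diagonal. Regions with a high background lie below the diagonal, such as the BCL2 region at 81.5 by reads and 11.3 by −log10 q.

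BCL2L1 on chromosome 20 had the promoter with the highest mean percentile by −log10 q among the members, though the internal BCL2 promoter had more summit reads (mean 59.8 against 51.3) and the MCL1 promoter ranked higher by fold enrichment (percentile 75.9 against 73.1). The region chr20:30311049-30311957 covered 8 annotated starts, with its summit 770 bp upstream of the canonical one, and gave 51 and 49, 64 and 49, and 51 and 44 reads (percentile 78.5 to 94.8). Its 5 distal regions were weaker, with mean percentiles of 4.24 to 40.6. The 2 that all libraries called both lay in introns. The one with the highest mean −log10 q, chr20:30293512-30294185, overlapped the antisense gene BCL2L1-AS1 and had 21 and 12, 22 and 12, and 20 and 19 reads. The other, chr20:30305049-30305668, is the window printed above with 2 NF-kB matches and had 31 and 17, 23 and 20, and 28 and 21 reads. In both, replicate 1 was above replicate 2 in every protocol, though the labels do not say that a replicate number marks a shared batch.

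MCL1 encodes a short-lived inhibitor that B cells depend on at many stages. Its promoter, chr1:150551476-150552454, had 34 and 22, 28 and 30, and 33 and 38 reads and ranked at percentile 63.8 to 81.6. Its 2 distal regions lay downstream of the main promoter inside annotated introns, and their calls split by protocol. The first, chr1:150535280-150535724, was called with 30 and 20 reads with the old buffer and with 23 reads in new buffer purified replicate 1, and in no other library. The second, chr1:150539776-150540269, was called in the 4 new buffer libraries with 24, 18, 18 and 20 reads and in neither old buffer library. Over the libraries that called them, their mean backgrounds were 5.05 and 4.45 reads. At these, 16 and 15 reads would have reached a −log10 p of 4.60. This is the lowest value listed in old buffer replicate 1, the strictest library, and the limits of the others were lower. The summits that were called held 20 to 30 and 18 to 24.

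BCL2A1 on chromosome 15, a close relative of MCL1 in function, had the densest window, with 5 regions in 30.3 kb. Only 2 of these were called in all libraries, and BAX had 2 such regions in 26.98 kb. BCL2A1 also had the lowest best promoter by −log10 q among the members with a promoter called in all libraries. By mean summit reads the BAX promoter was lower (17.7 against 21.2), and by fold enrichment those of CFLAR, BCL2L11 and BCL2 were (percentiles 16.6, 29.5 and 30.7 against 32.5). Its promoter, chr15:80263130-80263821, covered the canonical start and had 25 and 31, 18 and 18, and 13 and 22 reads. The old buffer libraries lay above the 4 others, which reached 22. Its rank ranged from percentile 0.171 in new buffer unpurified replicate 1 to 79.2 in old buffer replicate 2. The window was poor in CpG, with 3 CpG dinucleotides and 44% GC, where the median promoter region had 28 and 67%. The distal region 7865 bp upstream, chr15:80271076-80271651, was steadier than the promoter and had 23 and 21, 26 and 16, and 22 and 24 reads (44.9 ± 10.1, SD, n = 6).

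CFLAR on chromosome 2 had 3 promoter regions, where 11% of all genes had 2 or more. The one called in all libraries, chr2:201982903-201983651, had its summit 2452 bp downstream of the canonical start, at another start, and had 40 and 32, 39 and 37, and 44 and 39 reads. The region just downstream of the canonical start, chr2:201980996-201981753, was missed in old buffer replicate 1 and had 31, 29, 31, 30 and 23 reads in the others. The third, chr2:201993917-201994159, was called only in old buffer replicate 2, with 20 reads. Among the distal regions, chr2:202022828-202023379, 42150 bp into the gene, was called with 16 reads in old buffer replicate 2, 14 and 13 reads with the new buffer purified and not at all with the new buffer unpurified. Its window held an NF-kB match.

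Of the death genes, BCL2L11, which encodes BIM, the BH3-only protein that removes self-reactive B cells, had the most regions, 6 in 69.1 kb. The summits of all 6 also lay inside MIR4435-2HG, another annotated gene. Both BCL2L11 promoter regions were called in all libraries. The one at the canonical start, chr2:111878097-111878641, had 31 and 33, 29 and 37, and 39 and 36 reads, and the one at a start further downstream, with its summit 1626 bp into the gene, chr2:111879874-111880460, had 21 and 23, 29 and 23, and 28 and 23. The first was thus higher in 5 of 6 libraries and equal in new buffer purified replicate 1. Upstream, chr2:111873517-111874037 lay 4765 bp before the canonical start and inside ACOXL and MIR4435-2HG, so that it cannot be assigned to BCL2L11 by position alone. It had 29 and 23, 21 and 20, and 22 and 20 reads, with both old buffer libraries above the 4 others. The distal region with the highest mean −log10 q over the libraries that called it, chr2:111926116-111926503, just past the 3′ end, was called in 4 libraries with 11 to 22 reads, fewer in the mean than the upstream region (16.8 against 22.5).

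The promoters of the pore formers had few summit reads on a low background. The BAX promoter, chr19:49457923-49458552, had 17 and 19, 15 and 14, and 18 and 23 reads over a background of 1.81. It ranked at 50.2 by −log10 q, at 34.2 by reads and at 65.1 by fold enrichment. The only other region in the BAX window was the promoter of FTL, the ferritin light chain (chr19:49468211-49469121, percentile 63.5). The BAK1 promoter, chr6:33547941-33548201, was called only with the old buffer, with 15 and 13 reads. At its mean background of 1.85 in these libraries, a summit of 9 reads would have reached the limit of the strictest library. The distal region of BAK1, chr6:33538607-33539333, lay downstream inside GGNBP1 and was called in all libraries with 13 and 14, 12 and 20, and 25 and 19 reads.

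BBC3 encodes PUMA, which p53 induces after DNA damage. Its promoter, chr19:47734258-47734731, was called only with the new buffer purified, with 30 and 26 reads. The mean background in the 2 libraries that called it was 6.82 reads. At that background 20 reads would have reached the limit of the strictest library. Background and reads in the other 4 libraries are not known there, so a lower summit may have gone uncalled. Its intronic element, chr19:47729345-47730062, was called in 5 libraries, with 24 reads in old buffer replicate 1, no call in replicate 2, and 34 and 32, and 37 and 33 reads with the new buffer.

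FAS on chromosome 10 had its only regions at the promoter. The promoter region, chr10:90750020-90750704, had 22 and 22, 27 and 37, and 26 and 25 reads. It also overlapped a promoter of ACTA2, so it cannot be assigned to FAS by position alone. A second region beside it, chr10:90750975-90751301, was called only in old buffer replicate 1 with 25 reads.

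**Figure D4:**
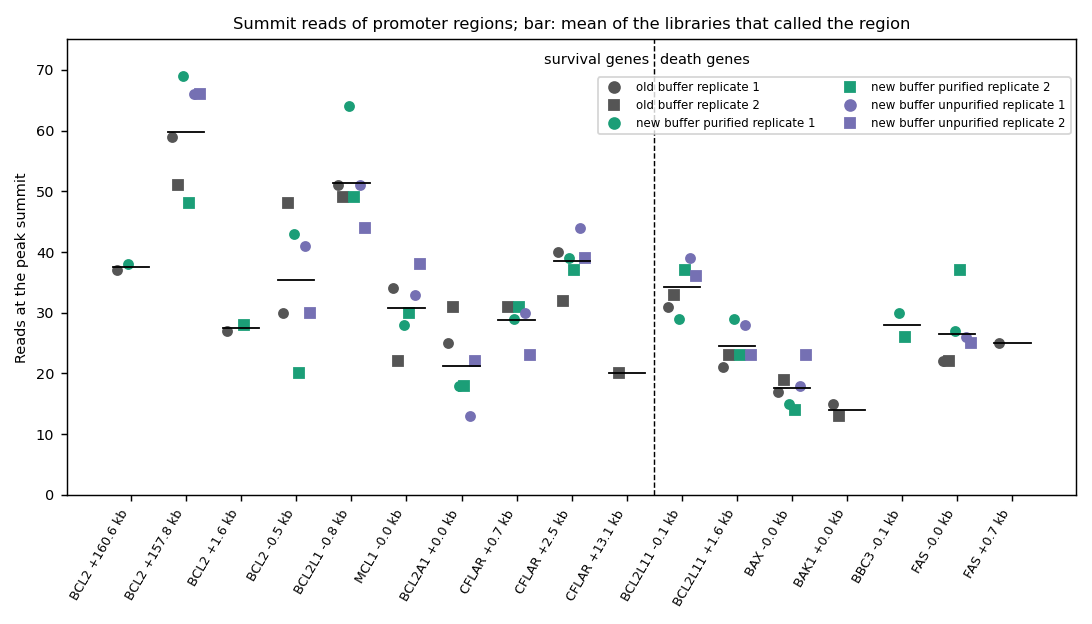
Reads at the peak summit (y axis, from 0) for the 17 promoter regions of the members (x axis, with distance of the summit from the main start in kb), one point per library that called the region and a bar at their mean. The internal BCL2 promoter (48 to 69 reads) and the BCL2L1 promoter (44 to 64) lie highest, and BAX (14 to 23) and BAK1 (13 and 15) have the lowest means.

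Sites called in both libraries of 1 protocol and neither of another were few. Old against new buffer purified gave 1 of 49 member regions, the BAK1 promoter (background 3.2%). Old against new buffer unpurified gave 2 of 48, the first MCL1 distal region and the BAK1 promoter (background 2.82%). New buffer purified gave 3 of 49 that the old buffer missed, at BCL2, MCL1 and the BBC3 promoter (background 1.83%), and 2 of 47 that the unpurified protocol missed, at CFLAR and the BBC3 promoter (background 1.76%). New buffer unpurified gave 2 of 48 against the old buffer, at BCL2 and MCL1 (background 2.4%), and 0 of 47 against new buffer purified (background 2.7%). At 1 protocol alone stood the BAK1 promoter for the old buffer (background 1.16%) and the BBC3 promoter for the new buffer purified (background 0.507%), and no member region stood alone for the unpurified protocol (background 0.788%). Counts this small do not set the members apart from the background.

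Summit reads were then compared between protocols with limma over the 20064 regions that all libraries called, 19 of them at members. No region passed an adjusted p of 0.05 in any of the 3 contrasts (background 0%), at members or elsewhere. At an unadjusted p under 0.05, limma gave 2 of 19 member regions for new buffer purified minus old buffer, 1 for new buffer unpurified minus old buffer and 0 for unpurified minus purified, where 7.67%, 7.38% and 4.72% of all regions passed. The member differences ran from −0.80 to 0.62 on the log2 scale, with a median SE of 0.22, and their medians were 0.10, 0.14 and 0.07, against 0.03, 0.04 and 0.01 over all regions.

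The largest difference was at the BCL2A1 promoter, with a log2 difference of −0.80 (SE 0.27) for new buffer unpurified minus old buffer (limma, adjusted p = 0.642) and −0.60 (SE 0.27) for new buffer purified minus old buffer (adjusted p = 0.649). These 2 contrasts share the old buffer libraries. The FAS promoter was 0.55 (SE 0.24) higher with the new buffer purified than with the old buffer (adjusted p = 0.638), with 37 reads in replicate 2 and 22 to 27 in the 3 other libraries. The distal BAK1 region was 0.62 (SE 0.29) higher with the new buffer unpurified than with the old (adjusted p = 0.678). None of these passed the test, which does not show that the protocols gave equal values at these sites.

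**Figure D5:**
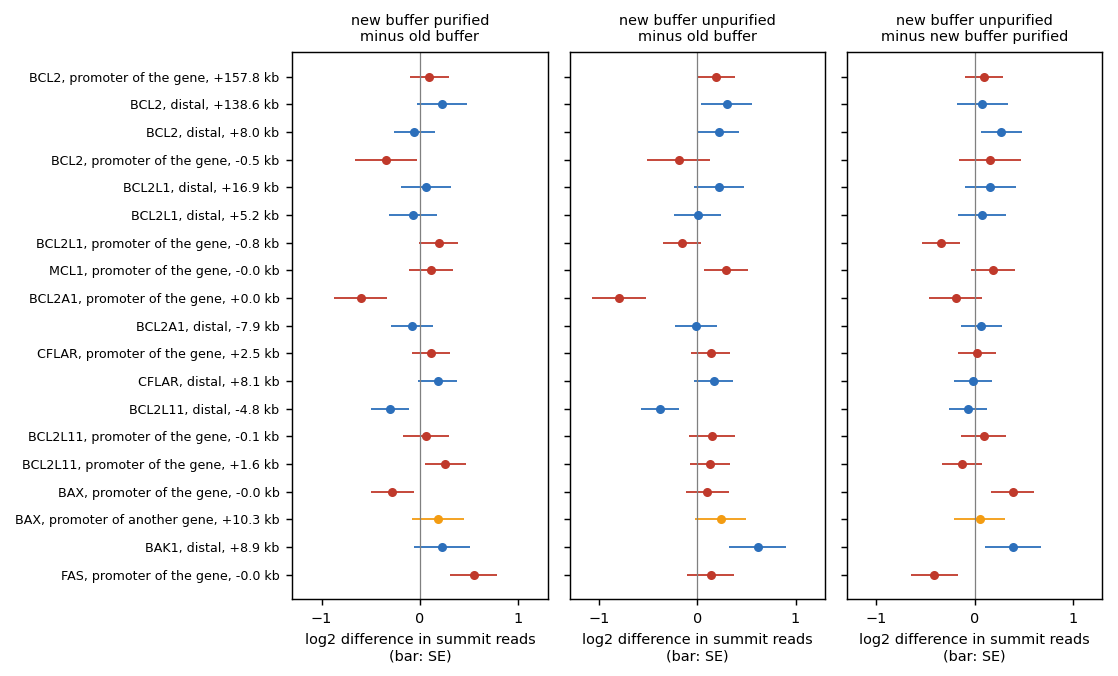
Log2 difference in summit reads between protocols (x axis, bars are SE) for the 19 member regions called in all 6 libraries, one panel per contrast, coloured as promoter (red), promoter of another gene (orange) or distal (blue). Most points lie within 1 SE of 0, and the BCL2A1 promoter lies farthest out, at −0.60 and −0.80 against the old buffer.

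The 300 bp windows of the members differed in sequence between the classes. Death regions had a median GC content of 63.8% and 22.5 CpG dinucleotides, and survival regions 48% and 3, near the 46% and 3 of all regions. The death windows were promoters more often, and among promoters alone the medians were 73.7% GC at death genes and 60.2% at survival genes, with 67% over all promoter regions. Among distal regions the order was the other way round, with 41.3% at death genes and 47.7% at survival genes (44% over all distal regions). Of the 6 distal death windows, however, 4 were at BCL2L11, with 35.67% to 46.33% GC. Those at BAK1 and BBC3 had 64.33% and 76.33%, so the lower death median came from BCL2L11.

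The NF-kB pattern was present in 13 of 38 survival windows (34.2%) and in 2 of 14 death windows (14.3%), where 13.9% of all windows held it. It was found at every survival gene, in 5 of 10 promoter windows (1 each of BCL2, BCL2L1 and MCL1, and 2 of CFLAR) and in 7 of 27 distal ones, and the remaining match was in the CASP10 promoter in the CFLAR window. Over all regions, 15.4% of promoter and 13.4% of distal windows held it. Several of the matched regions were not called in all libraries. The number was 2 for the BCL2 promoter window and 4 for a distal one of BCL2. It was 2 and 1 for those of BCL2A1, 5 and 3 for a promoter and a distal region of CFLAR, and 2 for the CASP10 promoter. In the death class the NF-kB pattern was found at BBC3 and FAS, in their promoter regions called in 2 and 1 libraries. The IRF pattern was in 10 of 38 survival windows (26.3%), 0 of 14 death windows and 14.9% of all windows. By category it was in 3 of 10 survival and 0 of 7 death promoter windows (6.77% of all promoter windows). Among distal windows it was in 7 of 27 and 0 of 6 (17.1% of all distal windows). Neither difference between the classes was tested. Among the others, RUNX was in 4 and 3 windows of the classes (13.3% of all windows), AP-1 in 5 and 3 (18.5%), PU.1 (GAGGAAG) in 4 and 2 (12.2%) and the CTCF pattern in 1 and 0 (3.33%). The p53 pattern was in none of the member windows, and in 0.128% of all windows. A match is a description of the sequence, no binding was measured, and overlapping or neighbouring windows of a gene are not independent.

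Beyond the 10 members, 24 other genes of the pathway were read in the same way, and 15 had a promoter called in all 6 libraries, where 45.5% of all protein-coding genes did. The caspase step, which runs from the apoptosome to the executioner caspases, was complete with 5 of 5 promoters, at mean percentiles of 63.8 to 97.9. Of the caspase inhibitors 3 of 4 had one, and BIRC5 (survivin) had none. In the death receptor pathway it was 3 of 6, with TRADD called in 4 libraries, CASP10 in 2 and the ligand FASLG in none. In the rest of the BCL2 family it was 1 of 2 inhibitors, without BCL2L10, and 3 of 7 death proteins. Of the remaining death proteins HRK was called in 4 libraries, and BID, BIK and BOK had no promoter region in any. BCL2L10 and BID each had 3 distal regions in their windows all the same, so that absence of a promoter call did not mean a window without accessible sites.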

How the data were processed

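Bulk ATAC-seq of fixed GM12878 cells was analysed in 6 libraries, grouped by the reverse crosslinking protocol that the labels give. Per the labels and the methods of the study, the authors mapped reads to hg19 with Bowtie2 2.1.0, removed duplicates with Picard 1.79 and mitochondrial reads, and used MACS2, with a q value threshold of 0.01, to call peaks. Which MACS2 version was used is not given in the sources used here. Although the methods describe merging reads of a condition before peak calling, there is 1 list per library, so each library was taken as 1 replicate. The deposited score is the −log10 q times 10, the deposited fold enrichment is the ratio of summit reads to local background, each plus 1 read, and the deposited −log10 p and −log10 q belong to the summit. Duplicates had been removed, which limits the reads that can pile up at 1 position.

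From there, peaks were merged where they overlapped by at least 1 bp or adjoined. Starts came from GENCODE 44 on GRCh37, and no peak passed a chromosome end. For FAS, which has no canonical tag, the 5′ end of the gene was used. Summit reads and background were solved from the fold and p value, and all peaks agreed within 0.001 in −log10 p. Depth enters through them, and regions near the calling limit can be missed in a shallow library. Log2 summit reads of regions called in all libraries were centred on the library median and compared with limma 3.58.1 in R 4.3.3, protocol as the only term, with Benjamini-Hochberg adjustment over all 20064 regions at 0.05.

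The members, gene lists and tests were chosen with earlier results of these data known. Named were all promoter regions of members, the distal region with the highest mean −log10 q, protocol-specific regions, and pathway genes without a promoter in all libraries. Other named regions were chosen once values had been seen. The NF-kB, p53 and CTCF patterns have degenerate letters and are given by name. Alternatives were a −log10 q of at least 5, an equal number of peaks, other windows around genes and starts, a 100 bp overlap for merging, ranking by fold, other scalings and filters in limma, a replicate block and each library left out. Ranking by summit reads was added after the data were seen. Merging and overlaps gave the same result as bedtools 2.31.1. The solving of summit reads, the limma comparison and the motif search were also tested on simulated data. Python 3.11.15, NumPy 2.4.6, pandas 2.3.3, SciPy 1.17.1 and pysam 0.24.0 were used. Outliers were not tested with 2 libraries per group, and the single-cell experiments were not analysed here. A B cell marker and a distal region are not reported here.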

Additional observations from a re-analysis of the deposited data

How the results depend on the processing

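Of 152 values recomputed under alternatives, 14 moved and 5 changed sign. The other 133 kept their direction and stayed within 1 SD of the 6 libraries or, for counts, within 1.5 times. With 50 kb in place of 10 kb around each gene there were 62 survival and 25 death regions, of which 23 and 11 were called in all libraries, and the distal difference in percentile (survival minus death) was 0.356. With no flank, 4 death regions were called in all libraries. Ranked by fold enrichment, the median percentile was 29.3 for survival promoters, 30.4 for death promoters and 24.2 for survival distal regions, and the promoter difference was −1.11. Ranked by summit reads, these were 79.7, 59.8 and 50.2, and the distal difference was 12.4. With −log10 q of at least 5, death promoters were at 36.7, the promoter difference was 26.6 and the distal difference 1.87, and with 30136 peaks in every library death promoters were at 36.6. Leaving out each library in turn gave 36 to 39 survival and 13 or 14 death regions, 12 to 14 and 7 or 8 of them called in all libraries, a promoter difference of 12.9 to 18.4 and a distal difference of −10.1 to 3.59, positive only without new buffer unpurified replicate 1. The cause of these changes was not tested. limma called 0 regions in every contrast under every alternative run. With the replicate block it also called 0, at members and elsewhere, with 1560, 1475 and 944 regions at an unadjusted p under 0.05. The deviations of libraries of the same number correlated at −0.00417 to 0.0146 over 20064 regions, so the numbers were not taken to pair the libraries. Peaks near the calling limit rest on 8 or 9 reads at the lowest backgrounds, and about 20 where the background is near 7, so a missing call says little about such sites. With 2 libraries per protocol, a difference that limma did not call may still be present.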
